A study of Mus musculus with 4 samples.

Results

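Id1, Id2, Id3, Id4, Hes1, Hes6, Insm1, Sox4 and Sox11 are 9 mouse genes for regulators that hold back or drive neuronal differentiation, and they were followed here across 4 RNA-seq libraries of N2A cells, a mouse neuroblastoma line. The genes were taken by symbol from a list drawn up with earlier results of these data known, and all 9 were found among the 20707 gene symbols matched to RefSeq transcripts in the deposited Cufflinks models. Cells received shRNA plasmids against Ptbp1 alone (Ptbp1 knockdown), against Ptbp2 alone (Ptbp2 knockdown), against both (double knockdown) or a control shRNA (control). Transfection with Lipofectamine lasted 5 h and RNA was taken after 3 d of culture, and each group has 1 library of strand-specific paired-end reads of 100 bases. As a model the cells are limited to 1 tumour line and plasmid-borne shRNAs.

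Ptbp1 and Ptbp2 are RNA-binding proteins that repress many alternative exons, and in developing neurons Ptbp2 takes the place of Ptbp1. Id proteins are helix-loop-helix proteins without the basic region that touches DNA. They bind E proteins and so keep proneural basic helix-loop-helix factors off DNA. Hes1 is a basic helix-loop-helix repressor switched on by Notch, whereas Hes6 is a relative that counters Hes1 and favours neurogenesis. Insm1 is a zinc finger factor of neuronal and neuroendocrine precursors, and Sox4 and Sox11 are SoxC factors with an HMG box that act in immature neurons.

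Levels are given as FPKM (fragments per kilobase, scaled for library size) from the deposited gene tables, divided by each library's own total so that libraries and genes can be set side by side per length. A second measure, in CPM (exon reads scaled for library size), sums the reads on a fixed list of exons for the genes that have exon trios there, and it serves to compare libraries, not genes. With 1 library in each group no difference has a replicate check, no p-value was computed, and the 95% intervals cover counting and read assignment only. Reads without molecular identifiers are not independent molecules, so these intervals are narrow. A difference was called when it reached 2-fold on the log2(FPKM + 1) scale, with at least 3 FPKM in 1 of the pair and intervals that did not overlap. Because these are bulk samples, fewer cells of a kind and less RNA per cell cannot be told apart.

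The labels were checked first. Ptbp1 was at 55.4 FPKM in Ptbp1 knockdown cells, 177 in Ptbp2 knockdown cells and 36.8 in double knockdown cells, against 149 in control. Ptbp2 was at 76.0 FPKM in Ptbp1 knockdown cells, 10.8 in Ptbp2 knockdown cells and 20.6 in double knockdown cells, against 35.2 in control. Ptbp2 was thus lower in double knockdown cells than in control by less than 2-fold in FPKM, although its exon reads were at 41.3 CPM there against 94.6 CPM in control. It was above control where Ptbp1 alone was targeted. Exon reads summed to 186 M reads in Ptbp1 knockdown cells, 217 M in Ptbp2 knockdown cells and 231 M in double knockdown cells, against 232 M in control, a read over a junction being counted in each exon it touches. The 10 noradrenergic neuroblastoma markers with a value in every library summed to 538, 603 and 505 FPKM in Ptbp1, Ptbp2 and double knockdown cells, against 474 FPKM in control, and the other marker, Chgb, had no value in Ptbp2 knockdown cells. Among markers of astrocytes and oligodendrocytes, Aqp4, a water channel of astrocytes, was listed at 0 in all 4 libraries. The 8 immune and endothelial markers with a value summed to between 0.817 and 1.51 FPKM, mostly Pecam1. Of the 9 fibroblast and mesenchymal markers almost all signal was Fn1, a matrix protein, at 31.0, 58.2 and 39.3 FPKM in Ptbp1, Ptbp2 and double knockdown cells against 88.3 FPKM in control, with Thy1 listed at 0 in all 4 libraries. The other fibroblast markers were low, and by exon reads 6 of 7 tested were above control in Ptbp1 knockdown cells, with Col1a1, Col1a2 and Pdgfrb past 2-fold at 1.21, 1.15 and 1.42 on the log2 scale. In double knockdown cells 5 of 7 were above control by exon reads, with Col1a2 past 2-fold at 1.80 and Fn1 at -1.01, and in Ptbp2 knockdown cells 2 of 5 were above, with Pdgfra past 2-fold downward. Dbh, the last enzyme of noradrenaline synthesis, was at 65.3, 6.12 and 18.2 FPKM in Ptbp1, Ptbp2 and double knockdown cells against 16.3 FPKM in control. By exon reads Th, the first enzyme of that synthesis, was past 2-fold upward in Ptbp1 knockdown cells, at 2.28 on the log2 scale, and downward in Ptbp2 knockdown cells, at -1.51. The part of the fibroblast markers, Dbh and Th in the results below was not tested.

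Across the members the clearest difference was in the Id family, where the shares of Id2, Id3 and Id4 messages in Ptbp2 knockdown cells departed from control. Id1 had no gene value of its own in these 2 libraries and is not part of those shares. Id4 was higher there, Id2 and Id3 were lower, and the same directions were measured in double knockdown cells. Insm1 was at 144.3% of control in Ptbp2 knockdown cells and 139.3% in double knockdown cells by gene FPKM, short of the 2-fold rule. Hes1 was near 0 in every library, and Hes6, Sox4 and Sox11 lay between 82.3% and 125.3% of control by gene FPKM.

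**Figure D1:**
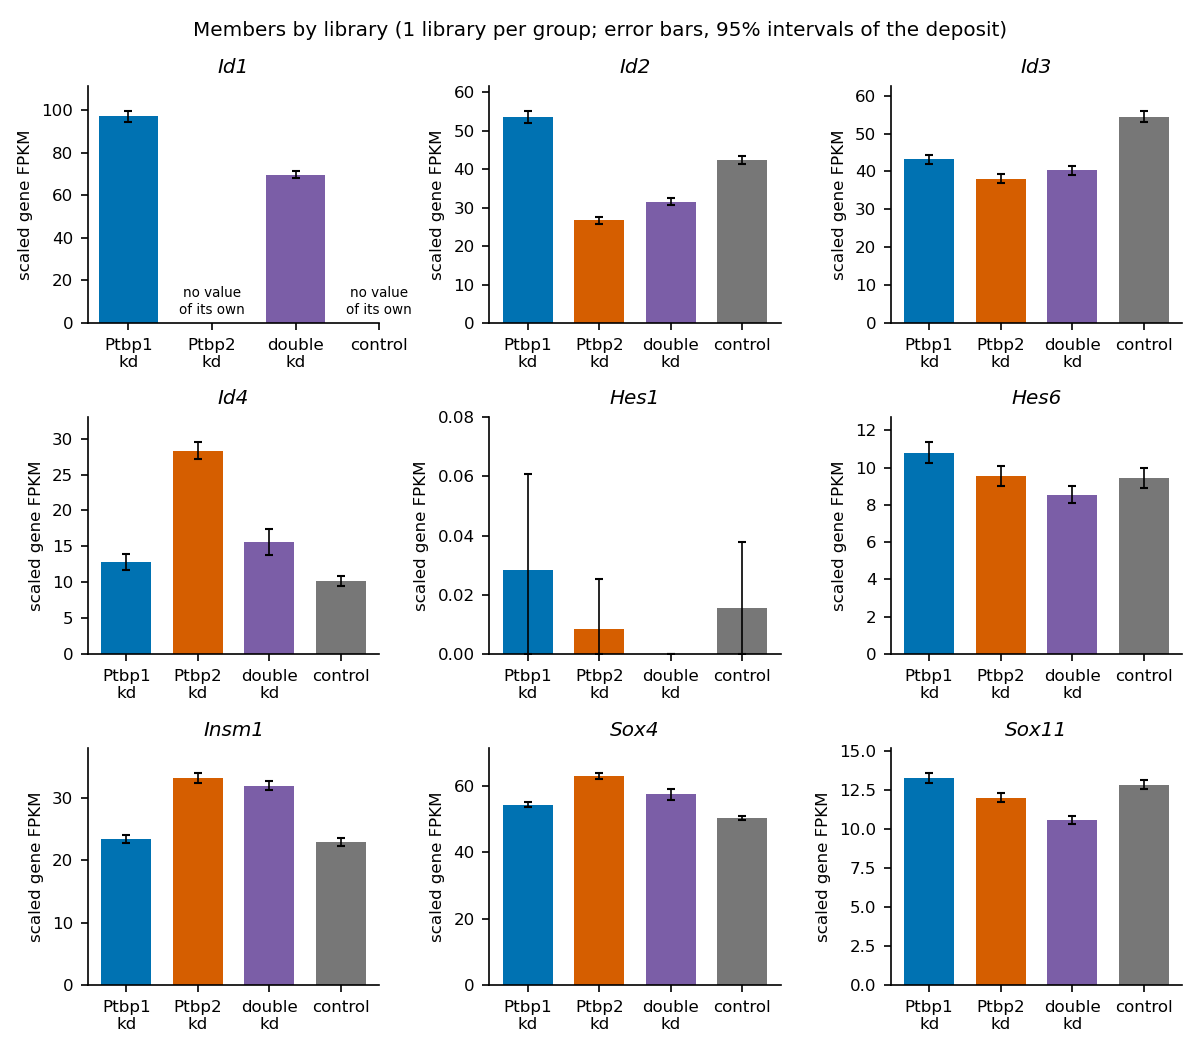
Scaled gene FPKM of the 9 members (y axis, linear from 0, a scale of its own in each panel) in the 4 libraries (x axis), with the deposited 95% intervals as error bars and 1 library per group. Id4 stands at 28.3 FPKM in the Ptbp2 knockdown against 10.2 FPKM in control, and Hes1 is at most 0.0285 FPKM in any library.

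By the call rule 1 member passed in the Ptbp2 knockdown against control, Id4, of 7 members that could be tested. Of all 8735 genes tested in that comparison, 2.55% were called. In the Ptbp1 knockdown against control 0 of 7 members were called, beside 2.29% of 8923 genes. In the double knockdown against control 0 of 7 members were called, beside 2.47% of 8819 genes. Against the Ptbp1 knockdown the double knockdown had 0 of 8 members called, beside 2.11% of 8903 genes, and against the Ptbp2 knockdown 0 of 7, beside 2.41% of 8799 genes. Hes1 was left out throughout for its low level, and Id1 in 4 of the 5 comparisons because it had no gene value of its own in Ptbp2 knockdown cells and control. The comparisons with control share 1 control library, so their values stand side by side and are not independent.

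The median log2 difference of the 7 members tested was 0.11 in Ptbp1 knockdown cells, 0.01 in Ptbp2 knockdown cells and -0.13 in double knockdown cells, each against control. The medians over all genes tested in those comparisons were 0.04, 0.02 and 0.07. Of the 7 members, 6 were above control in Ptbp1 knockdown cells, 4 in Ptbp2 knockdown cells and 3 in double knockdown cells, beside 54.9%, 52.8% and 58.5% of all genes tested. By exon reads, which exist for Id2, Id3, Id4 and Hes6 above the minimum, Id4 in Ptbp2 knockdown cells was again the only call, where 3.11% of 12103 genes were called. Neither the Ptbp1 knockdown nor the double knockdown had a member called by exon reads against control, beside 6.51% of 12325 and 3.75% of 12214 genes. The double knockdown had none called by exon reads against the Ptbp1 knockdown (3.66% of genes) or the Ptbp2 knockdown (3.13% of genes).

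Assembled depth could be read for 8 members. For it, the assembler's mean coverage of each model was laid on the RefSeq bases that the model overlaps. Assembled depth thus rests on the same models as the gene FPKM and is not independent of it. It also called Id4 alone, in the Ptbp2 knockdown against control, beside 3.09% of 9453 genes. By depth no member was called in the Ptbp1 knockdown (2.94% of genes) or the double knockdown (3.09%) against control, nor in the double knockdown against the Ptbp1 knockdown (2.47%) or the Ptbp2 knockdown (2.62%).

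Other settings changed 2 kinds of call. With a 1.5-fold threshold Id2 joined Id4 in the Ptbp2 knockdown against control (11.8% of all genes called), Id2 was called in the double knockdown against the Ptbp1 knockdown (9.81%), and Id4 in the double knockdown against the Ptbp2 knockdown (9.99%). With RefSeq models alone in place of the whole gene, Id4 was called lower, by -2.94 in the Ptbp2 knockdown against control (10.8% of genes), by -1.34 in the double knockdown against control (11.2%) and by -1.67 in the double knockdown against the Ptbp1 knockdown (10.5%), for the model split described with Id4.

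**Figure D2:**
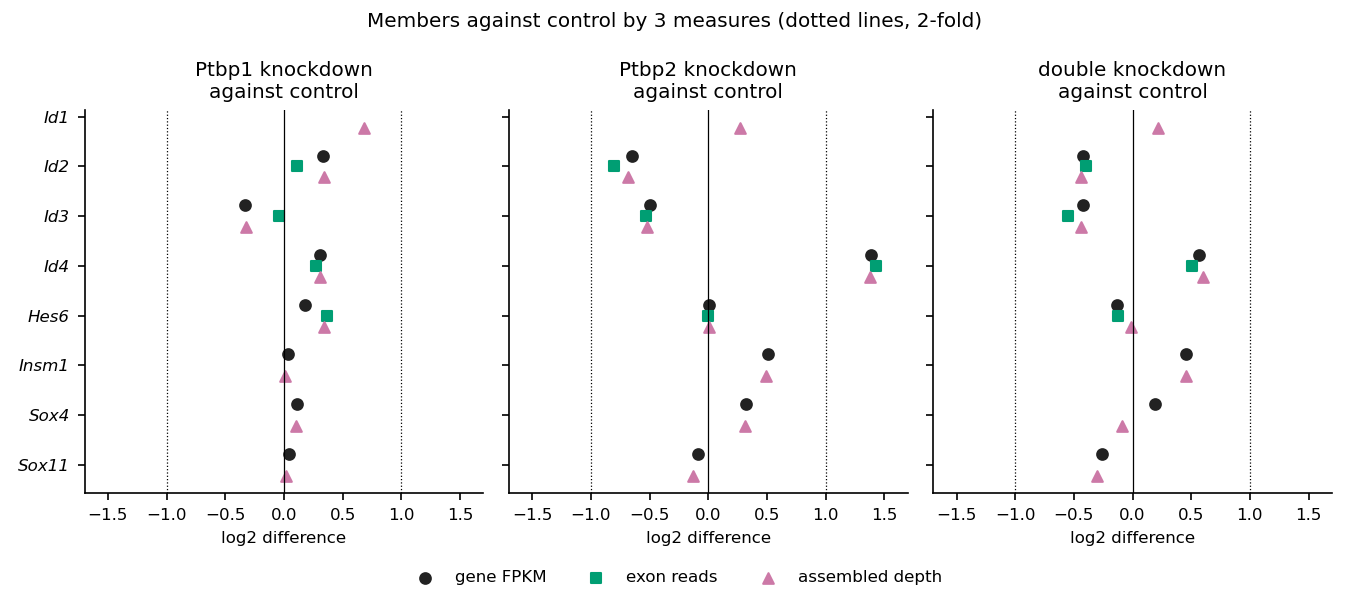
Log2 difference of each knockdown against control (x axis) for the members other than Hes1 (y axis), by gene FPKM (circles), exon reads (squares) and assembled depth over RefSeq exons (triangles); dotted lines mark 2-fold. Id4 in Ptbp2 knockdown cells passes 2-fold by every measure, at 1.39, 1.43 and 1.38, and no other point does. Gene FPKM and assembled depth rest on the same assembled models.

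The Id genes carry the helix-loop-helix region with which the proteins pair with E proteins. In the GENCODE transcripts on GRCm38 the ungapped stretch of 120 coding bases that matched best among the 4 messages had 69 bases shared by all 4. It is shown because it is the part through which these proteins act and where the family members are most alike. The bases are given 5′ to 3′ on the coding strand with the shared ones in capitals, for Id1 (chromosome 2, coding bases 181 to 300), Id2 (chromosome 12, coding bases 112 to 231), Id3 (chromosome 4, coding bases 127 to 246) and Id4 (chromosome 13, coding bases 199 to 318).
Id1: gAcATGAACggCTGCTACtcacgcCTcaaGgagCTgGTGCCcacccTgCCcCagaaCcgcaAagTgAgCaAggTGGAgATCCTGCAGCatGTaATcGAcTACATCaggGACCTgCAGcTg
Id2: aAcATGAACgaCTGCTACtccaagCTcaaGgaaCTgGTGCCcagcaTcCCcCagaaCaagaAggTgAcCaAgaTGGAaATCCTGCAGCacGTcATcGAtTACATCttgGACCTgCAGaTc
Id3: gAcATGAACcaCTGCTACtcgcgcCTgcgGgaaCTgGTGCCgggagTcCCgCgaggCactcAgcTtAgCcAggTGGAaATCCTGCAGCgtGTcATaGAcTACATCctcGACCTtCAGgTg
Id4: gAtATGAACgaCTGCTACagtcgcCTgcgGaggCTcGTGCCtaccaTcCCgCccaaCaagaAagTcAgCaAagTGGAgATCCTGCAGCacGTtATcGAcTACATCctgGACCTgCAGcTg

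Within this window Id1 and Id2 matched at 96 of 120 positions, the highest of the 6 pairs, and Id1 and Id3 and Id2 and Id3 at 85, the lowest. Over whole transcripts the longest unbroken run shared by any pair of Id genes was 17 bases, between Id1 and Id4. Sox4 and Sox11 shared a longer run of 48 bases, and Hes1 and Hes6 one of 13 bases. Reads were 100 bases long, and how mismatches and multiple matches were handled is not given in the sources used here.

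Id4 (NM_031166) lies on mm9 chromosome 13 from 48356796 to 48359405 on the plus strand, in 3 exons with 1660 exonic bases. The gene is best known for keeping neural precursors in an undifferentiated state. Its level was 12.9 FPKM (95% interval 11.7 to 14.0) in Ptbp1 knockdown cells, 28.3 (27.2 to 29.5) in Ptbp2 knockdown cells and 15.6 (13.8 to 17.4) in double knockdown cells, against 10.2 (9.45 to 10.9) in control. Control was therefore the lowest library and the Ptbp2 knockdown the highest, and no interval of a knockdown overlapped that of control. The double knockdown stood nearer to control than to the Ptbp2 knockdown, at 54.9% of the Ptbp2 knockdown's level. Exon reads gave 15.5 CPM in Ptbp1 knockdown cells, 34.9 in Ptbp2 knockdown cells and 18.4 in double knockdown cells, against 12.9 in control, from 3070, 7351, 4400 and 2830 reads. The ratio of exon reads to control was 2.71 in Ptbp2 knockdown cells (exact 95% interval 2.60 to 2.83), 1.43 in double knockdown cells (1.37 to 1.501) and 1.21 in Ptbp1 knockdown cells (1.15 to 1.27).

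Id4's exons did not differ from control evenly. In the Ptbp2 knockdown the scaled reads were 4.28 times control in exon 1 (3.70 to 4.96), 3.92 times in exon 2 (3.28 to 4.70) and 2.49 times in exon 3 (2.37 to 2.61), so that the interval of exon 3 lay below the other two. In the Ptbp1 knockdown the ratios were 1.77 in exon 1, 1.65 in exon 2 and 1.124 in exon 3, again with exon 3 below the intervals of the others. In the double knockdown all 3 exons stood alike, at 1.42, 1.42 and 1.43 times control. Reads on the last exon were 6.63 times those on the first in Ptbp1 knockdown cells, 6.06 times in Ptbp2 knockdown cells and 10.6 times in double knockdown cells, against 10.4 times in control. Among 5393 genes with at least 100 reads on the first and the last exon of the list in every library, a drop of this quotient below control at least as large as that of Id4 was found for 1.30% in Ptbp2 knockdown cells and 2.13% in Ptbp1 knockdown cells. Id2 and Id3 did not share it: their quotients differed from control by -0.12 and -0.07 on the log2 scale in Ptbp2 knockdown cells, where the median of all genes was -0.05 and Id4 was at -0.78.

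Reads over the 2 junctions that flank Id4's 63-base middle exon also put the Ptbp2 knockdown highest and control lowest, from spliced RNA alone. There were 219 such reads in Ptbp1 knockdown cells, 562 in Ptbp2 knockdown cells and 229 in double knockdown cells, against 143 in control, and 0 reads that skipped the exon in any library. Scaled for library size the ratio to control was 4.11 in Ptbp2 knockdown cells (3.41 to 4.97), 1.703 in Ptbp1 knockdown cells (1.37 to 2.12) and 1.47 in double knockdown cells (1.19 to 1.83). GENCODE places exons of 2 other genes on the opposite strand across Id4. Which of Id4's exons they overlap was not examined. Whether the authors' counting used the strand of the reads is not given in the sources used here. Id4's exon reads therefore cannot be assigned to a strand, while a spliced read fixes its own junction.

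The assembled models of Id4 also ended at different places. The last assembled base lay 1987 bases beyond the RefSeq end in Ptbp1 knockdown cells, 304 bases beyond it in Ptbp2 knockdown cells and 24 bases beyond it in double knockdown cells, against 1991 bases in control. The longest model was 4053 bases in Ptbp1 knockdown cells, 2273 in Ptbp2 knockdown cells and 1987 in double knockdown cells, against 3991 in control. The RefSeq model itself took 8.68 FPKM in Ptbp1 knockdown cells and 2.03 FPKM in double knockdown cells, against 6.70 FPKM in control, and was listed at 0 in Ptbp2 knockdown cells, where a longer model took 25.1 FPKM. A 1-exon model that began in the second intron took a further 3.24 FPKM in Ptbp2 knockdown cells. The gene value sums models that are each scaled per their own length, so it too can depend on that split, whereas the exon reads are counted on fixed exons.

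**Figure D3:**
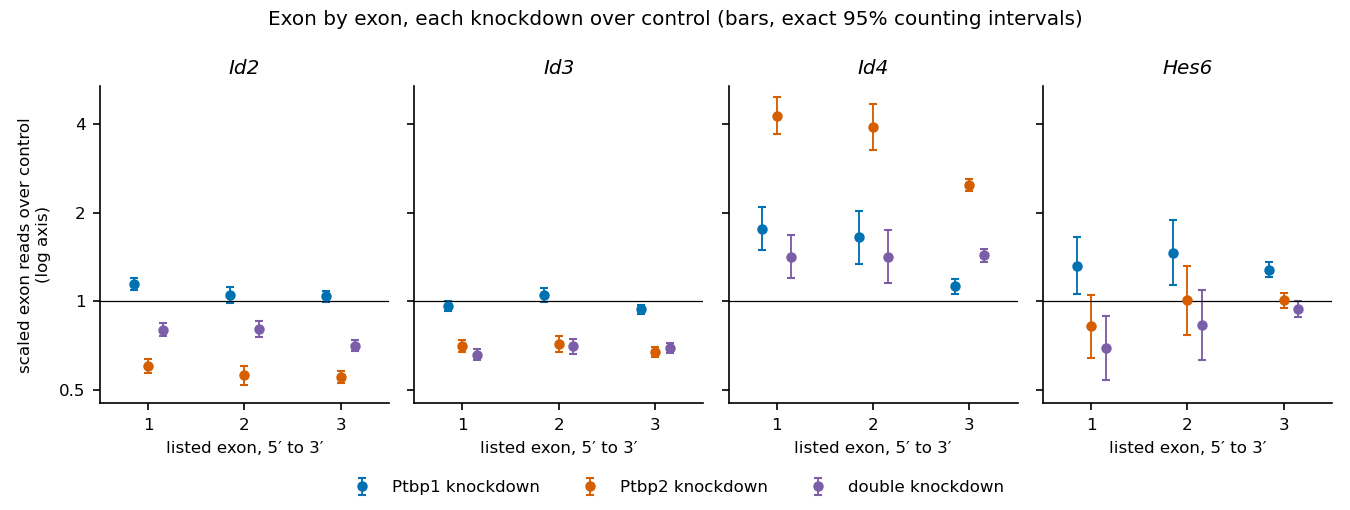
Scaled reads of each listed exon in a knockdown over control (y axis, log scale) for Id2, Id3, Id4 and Hes6, exons in order from 5′ to 3′ (x axis), with exact 95% counting intervals. For Hes6 the last listed exon is a block of 1318 bases that spans the third exon, the intron after it and nearly all of the last exon. Id4 exons 1 and 2 reach 4.28 and 3.92 times control in Ptbp2 knockdown cells and exon 3 reaches 2.49 times, while the exons of Id2 and Id3 lie between 0.554 and 0.716 times control there.

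Id2 (NM_010496) lies on mm9 chromosome 12 from 25778664 to 25780957 on the minus strand, in 3 exons with 1272 bases. It is an Id protein of proliferating precursors and a known brake on neuronal commitment. Id2 stood at 53.5 FPKM (52.1 to 54.99) in Ptbp1 knockdown cells, 26.7 (25.7 to 27.6) in Ptbp2 knockdown cells and 31.5 (30.5 to 32.4) in double knockdown cells, against 42.4 (41.3 to 43.5) in control. The libraries with Ptbp2 targeted were the low ones and the Ptbp1 knockdown was the high one, with no overlap of intervals. On the log2(FPKM + 1) scale these were differences of 0.33, -0.65 and -0.42 from control, none of them past the 2-fold rule.

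By exon reads Id2 was at 50.8 CPM in Ptbp1 knockdown cells, 26.9 in Ptbp2 knockdown cells and 35.7 in double knockdown cells, against 47.1 in control. The Ptbp2 knockdown thus held 57.2% of the control's reads and the double knockdown 75.9%. In the Ptbp1 knockdown the exon reads exceeded control by a ratio of 1.08 (1.05 to 1.11), less than the gene FPKM showed. All 3 exons stood alike in Ptbp2 knockdown cells, at 0.601, 0.561 and 0.554 times control, and so did the junction reads around the 64-base middle exon, at 0.562 times (0.521 to 0.605). That exon was kept in 99.26% to 100% of junction reads over the 4 libraries, with at most 4 skipping reads in any of them.

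Id3 (NM_008321) lies on mm9 chromosome 4 from 135699723 to 135701307 on the plus strand, in 3 exons with 967 bases. Like Id1 and Id2 it is a classical target of BMP signalling through SMAD proteins. Its level was 43.2 FPKM (42.0 to 44.4) in Ptbp1 knockdown cells, 38.1 (36.9 to 39.3) in Ptbp2 knockdown cells and 40.4 (39.2 to 41.5) in double knockdown cells, against 54.5 (53.1 to 55.9) in control. All 3 knockdowns were below control by this measure, at 79.3%, 69.9% and 74.1% of its level.

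The exon reads of Id3 set the Ptbp1 knockdown apart from that picture. They were at 60.5 CPM in Ptbp1 knockdown cells, 43.2 in Ptbp2 knockdown cells and 42.6 in double knockdown cells, against 62.3 in control. In the Ptbp1 knockdown the reads were therefore close to control, with a ratio of 0.971 (0.947 to 0.995). The assembled model behind the FPKM was 1407 bases long there, against 1044 bases in control. Assembled depth was at 80.1% of control in Ptbp1 knockdown cells, but for Id3 it is the mean coverage of the same model that gives the FPKM. Its nearness to the FPKM result is therefore built in. Why FPKM and exon reads differ was not tested. In the Ptbp2 and double knockdowns FPKM and exon reads were both lower than control, with exon ratios of 0.692 and 0.684. The 83-base middle exon was kept in at least 99.8% of junction reads in every library, and its junction reads were 0.730 times control in Ptbp2 knockdown cells and 0.699 times in double knockdown cells.

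Set side by side per length, Id2, Id3 and Id4 held different shares of their summed FPKM. Id1 was left out because it had no gene value of its own in Ptbp2 knockdown cells and control. It was at 96.9 FPKM in Ptbp1 knockdown cells and 69.6 FPKM in double knockdown cells, above each of these genes. Id4 made up 11.7% of the sum in Ptbp1 knockdown cells, 30.4% in Ptbp2 knockdown cells and 17.8% in double knockdown cells, against 9.502% in control. Id2 made up 48.9%, 28.7% and 36.0% in Ptbp1, Ptbp2 and double knockdown cells against 39.6% in control, and Id3 39.4%, 40.9% and 46.2% in the same cells against 50.9% in control. In the Ptbp2 knockdown Id4 thus stood level with Id2, and their intervals overlapped. The sum of the 3 genes was 110 FPKM in Ptbp1 knockdown cells, 93.1 in Ptbp2 knockdown cells and 87.4 in double knockdown cells, against 107 in control. Id2 was 4.16 times Id4 in Ptbp1 knockdown cells, 0.941 times in Ptbp2 knockdown cells and 2.02 times in double knockdown cells, against 4.17 times in control, each ratio being one of FPKM levels.

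**Figure D4:**
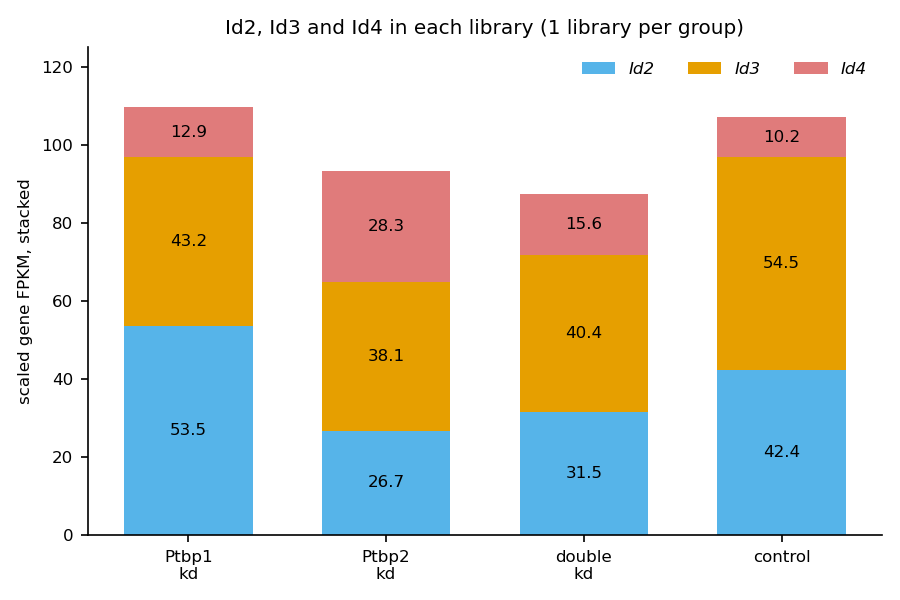
Scaled gene FPKM of Id2, Id3 and Id4 stacked (y axis, linear from 0) in each library (x axis, 1 library per group), with each gene's value printed in its block. The Id4 block is largest in Ptbp2 knockdown cells, at 28.3 FPKM, where the Id2 block is smallest, at 26.7 FPKM.

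Id1 (NM_010495) lies on mm9 chromosome 2 from 152562010 to 152563146 on the plus strand, in 2 exons with 911 bases. It had a gene value of 96.9 FPKM (94.6 to 99.3) in Ptbp1 knockdown cells and 69.6 FPKM (67.9 to 71.3) in double knockdown cells, where it was the highest of the 9 members. In the Ptbp2 knockdown and in control the assembly joined Id1 to H13, the upstream gene for a signal peptide peptidase, in models of 14 and 15 exons, and gave no value for Id1 alone. Id1 and H13 came to 133 FPKM in Ptbp1 knockdown cells and 96.7 in double knockdown cells, each the sum of 2 separate gene values. The joined gene was at 92.8 FPKM in Ptbp2 knockdown cells and 86.7 in control. In it a model over both genes is counted once, per its joint length, and a further gene, Mcts2, was placed under the same assembled gene. The summed and the joined values are unlike quantities and cannot be set against each other. H13 alone was at 36.6 FPKM in Ptbp1 knockdown cells and 27.0 FPKM in double knockdown cells.

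Assembled depth over the 911 RefSeq bases of Id1, scaled to each library's total, was 1698 reads per base in Ptbp1 knockdown cells, 1276 in Ptbp2 knockdown cells and 1233 in double knockdown cells, against 1061 in control. Every knockdown was above control by this measure, with log2 differences of 0.68, 0.27 and 0.22. The joined models end inside Id1's second exon, so the depth in Ptbp2 knockdown cells and control rests on how the assembler shared reads between models. The coverage of a joined model is also a mean taken over H13's exons. In Ptbp1 and double knockdown cells no model was joined to H13. Ptbp1 knockdown cells still had a second model that ended inside Id1 and took 6.48 FPKM, beside 90.5 FPKM on the RefSeq model. Id1 in double knockdown cells was at 71.8% of the FPKM in Ptbp1 knockdown cells. For that pair the deposited values without division by the library total gave a log2 difference of 0.09, where the median of all genes was 0.56.

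Hes1 (NM_008235, mm9 chromosome 16, 30065443 to 30067882, plus strand, 4 exons) is the repressor through which Notch holds precursors back. It was at 0.0285 FPKM in Ptbp1 knockdown cells and 0.00838 in Ptbp2 knockdown cells, was listed at 0 in double knockdown cells, and was at 0.0157 in control. Its exons held 19 reads in Ptbp1 knockdown cells, 9 in Ptbp2 knockdown cells and 6 in double knockdown cells, against 13 in control. With at most 2 spliced reads over any listed pair of junctions, no difference of Hes1 from control was detectable at this depth. Exon reads in the double knockdown were 0.261 times those in the Ptbp1 knockdown (0.0855 to 0.681), with 6 against 19 reads. The relative Hey1, another Notch-responsive repressor, was measured in all libraries, at 11.8 FPKM in Ptbp1 knockdown cells, 8.14 in Ptbp2 knockdown cells and 7.89 in double knockdown cells, against 8.77 in control.

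Hes6 (NM_019479) lies on mm9 chromosome 1 from 93308060 to 93309799 on the minus strand, in 4 exons with 1335 bases. It was at 10.8 FPKM (10.2 to 11.4) in Ptbp1 knockdown cells, 9.53 (8.99 to 10.1) in Ptbp2 knockdown cells and 8.55 (8.09 to 9.01) in double knockdown cells, against 9.44 (8.92 to 9.97) in control. The Ptbp1 knockdown alone had an interval clear of control, and by exon reads it stood at 1.29 times control (1.23 to 1.37). The Ptbp2 knockdown was level with control by exon reads, with a ratio of 0.997 (0.942 to 1.06), and the double knockdown was at 0.922 (0.872 to 0.976). The last of the 3 listed exons of Hes6 is a block of 1318 bases. It spans the third exon, the intron after it and nearly all of the last exon. This block held 2526 of the 2853 exon reads in Ptbp1 knockdown cells. The exon-read ratios of Hes6 therefore include any reads in that intron.

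The third of Hes6's 4 exons had the widest range of inclusion ratios over libraries among the member exons with spliced reads in all 4. It is 82 bases long, at mm9 93309298 to 93309379, lies wholly in the coding sequence and does not keep the reading frame when left out. In the GENCODE transcript on GRCm38, chr1:91412721-91412802 on the minus strand, it reads as follows, 5′ to 3′ in the sense of the gene.
Hes6 exon 3: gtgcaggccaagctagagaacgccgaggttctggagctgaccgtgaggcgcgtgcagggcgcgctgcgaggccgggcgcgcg

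The deposited SpliceTrap inclusion ratio of this exon was 68.4% in Ptbp1 knockdown cells, 85.4% in Ptbp2 knockdown cells and 74.3% in double knockdown cells, against 81.7% in control. Few reads lay behind it. Junction reads that skipped the exon numbered 6 in Ptbp1 knockdown cells, 3 in Ptbp2 knockdown cells and 4 in double knockdown cells, against 4 in control. From junctions alone inclusion was 89.7% in Ptbp1 knockdown cells (Wilson 95% interval 79.2 to 95.2), 95.2% in Ptbp2 knockdown cells (86.7 to 98.3) and 92.5% in double knockdown cells (82.4 to 97.1), against 93.4% in control (84.1 to 97.4). All 4 intervals overlapped, so no difference was detectable at this depth.

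Next to that exon, the 238-base intron before the last exon lay inside an assembled exon in some libraries. Models that held it whole took 33.6% of Hes6 FPKM in Ptbp1 knockdown cells, 17.7% in Ptbp2 knockdown cells and 35.6% in double knockdown cells. In control no model held it whole, but a 1-exon model of 1084 bases began inside it and took 3.61 FPKM, so the 0% there does not show full splicing.

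Insm1 (NM_016889, mm9 chromosome 2, 146047733 to 146050754, plus strand) has a single exon and so no exon reads on the list. Insm1 was at 23.4 FPKM (22.7 to 24.1) in Ptbp1 knockdown cells, 33.1 (32.3 to 33.9) in Ptbp2 knockdown cells and 31.9 (31.2 to 32.7) in double knockdown cells, against 22.9 (22.3 to 23.6) in control. The libraries fell into a high pair with Ptbp2 targeted and a low pair without, with overlapping intervals inside each pair and none between them. The log2 differences from control were 0.03, 0.51 and 0.46, below the 2-fold rule. Assembled depth, which comes from the same single model as the FPKM, gave 0.01, 0.49 and 0.46.

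Sox4 (NM_009238, mm9 chromosome 13, 29042599 to 29045551, minus strand) was among the most abundant members in every library. It was at 54.4 FPKM (53.7 to 55.1) in Ptbp1 knockdown cells, 63.0 (62.2 to 63.8) in Ptbp2 knockdown cells and 57.4 (55.8 to 59.0) in double knockdown cells, against 50.3 (49.6 to 51.0) in control. Every knockdown was above control and the Ptbp2 knockdown was highest, by a log2 difference of 0.32, although the deposited values without division put the Ptbp1 knockdown at -0.07. In all 4 libraries the RefSeq model was listed at 0 and the reads sat on assembled models that ran 1599 to 1624 bases past its 3′ end. In the double knockdown part of them, 23.8 FPKM, was given to a model of 3 exons not assembled elsewhere, and assembled depth over the RefSeq bases there was slightly below control, at -0.09. GENCODE also places a gene on the opposite strand over Sox4. The sign of the Sox4 difference in double knockdown cells therefore changed with the measure.

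Sox11 (NM_009234, mm9 chromosome 12, 28019133 to 28027595, minus strand) was at 13.3 FPKM (13.01 to 13.6) in Ptbp1 knockdown cells, 12.04 (11.8 to 12.3) in Ptbp2 knockdown cells and 10.6 (10.4 to 10.8) in double knockdown cells, against 12.9 (12.6 to 13.1) in control. The double knockdown was the lowest library, at 82.3% of control, but was 0.10 above it on the log2 scale in the deposited values without division, where the median of all genes was 0.44. The interval of the Ptbp1 knockdown overlapped that of control. Sox11 reads lay on the RefSeq model of 8463 bases or on that model extended at the 5′ end to at most 8886 bases.

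In order of gene FPKM the members ran differently in the libraries, and Id1 is missing from the order in Ptbp2 knockdown cells and control for want of a gene value. By assembled depth Id1 in control was at 1061 reads per base and Id3 at 1046. Part of the Id1 depth is the mean coverage of the model joined to H13, so the 2 genes cannot be ranked by it. From high to low the Ptbp1 knockdown ran Id1, Sox4, Id2, Id3, Insm1, Sox11, Id4, Hes6 and Hes1, where the intervals of Sox4 and Id2 and of Sox11 and Id4 overlapped. The Ptbp2 knockdown ran Sox4, Id3, Insm1, Id4, Id2, Sox11, Hes6 and Hes1, with Id4 and Id2 overlapping. The double knockdown ran Id1, Sox4, Id3, Insm1, Id2, Id4, Sox11, Hes6 and Hes1, with Insm1 and Id2 overlapping. Control ran Id3, Sox4, Id2, Insm1, Sox11, Id4, Hes6 and Hes1, with Id4 and Hes6 overlapping.

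Between knockdowns, the double knockdown had less Id2 than the Ptbp1 knockdown by both measures, at 58.8% of its FPKM and 70.3% of its exon reads. For Id4 the double knockdown had 54.9% of the Ptbp2 knockdown's FPKM and 52.8% of its exon reads. Insm1 in double knockdown cells was 1.35-fold above the Ptbp1 knockdown on the log2(FPKM + 1) scale and 1.04-fold below the Ptbp2 knockdown, with intervals that overlapped in the second comparison.

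Among 8747 genes compared, the 5 whose centred log2 FPKM over the 4 libraries lay closest to Id4 were Taf7, Coa7, Snhg17, Smarca5 and Rab3gap2, at Euclidean distances of 0.115 to 0.242. Taf7, the nearest, was at 10.8 FPKM in Ptbp1 knockdown cells, 24.7 in Ptbp2 knockdown cells and 12.5 in double knockdown cells, against 9.18 in control. With 4 libraries such likeness is only a description.

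Genes that act with the members were read from lists chosen with earlier results of these data known, each described by its counts against the call rule. E proteins and other Id partners had 0 called of 4 tested in Ptbp1 knockdown cells and 0 of 5 in each of the Ptbp2 and double knockdowns. Hand2, a partner factor of sympathetic neurons and the most abundant of them, was at 190, 233 and 186 FPKM in Ptbp1, Ptbp2 and double knockdown cells against 176 FPKM in control. Tcf4, the main E protein gene by level, chosen after its values were seen, was at 65.2, 51.9 and 47.3 FPKM in Ptbp1, Ptbp2 and double knockdown cells against 56.7 FPKM in control. Of 18 proneural and neuronal helix-loop-helix factors Atoh8 alone reached the minimum of 3 FPKM and was not called, at 10.9, 4.64 and 7.97 FPKM in Ptbp1, Ptbp2 and double knockdown cells against 7.23 FPKM in control.

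Of 26 Notch pathway genes, 1 of 13 tested was called higher in Ptbp1 knockdown cells, 1 of 14 in Ptbp2 knockdown cells and 0 of 13 in double knockdown cells, with none lower. The call was Psenen, a gamma-secretase subunit, at 4.51, 3.70 and 0.719 FPKM in Ptbp1, Ptbp2 and double knockdown cells against 1.19 FPKM in control. Assembled depth also called it in both, at 1.87 and 1.58 on the log2 scale, whereas its exon reads differed from control by -0.10 and 0.01. By exon reads 24 Notch genes were tested in each of these comparisons, and Notch1 (1.36) and Dlk1 (1.41) were past 2-fold in Ptbp1 knockdown cells and Dlk1 (1.18) in Ptbp2 knockdown cells, all upward. In double knockdown cells 0 of 23 were called by exon reads.

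BMP and SMAD genes had 0 called of 15 tested in Ptbp1 knockdown cells, 0 of 13 in Ptbp2 knockdown cells and 0 of 14 in double knockdown cells. Smad4, the shared partner of receptor SMADs, was at 28.2, 33.1 and 31.4 FPKM in Ptbp1, Ptbp2 and double knockdown cells against 32.4 FPKM in control. Smad9, a BMP receptor SMAD named after its values were seen, was at 17.1, 5.35 and 10.6 FPKM in those cells against 10.5 FPKM in control, and its exon reads in Ptbp2 knockdown cells were 2.04-fold lower than in control, past 2-fold. In the same comparison the receptor genes Bmpr1b and Acvr2b were past 2-fold upward by exon reads, at 1.63 and 1.05 on the log2 scale, of 19 genes tested. By exon reads Bmp5 and the BMP antagonist Chrd were past 2-fold upward in Ptbp1 knockdown cells, at 2.34 and 2.17, and Bmpr1b in double knockdown cells, at 1.88. Tle corepressors, through which Hes proteins act, had 0 called of 5 tested in every knockdown, with Tle5 most abundant at 61.5, 42.5 and 48.5 FPKM in Ptbp1, Ptbp2 and double knockdown cells against 44.4 FPKM in control.

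Of 17 cell cycle genes 1 of 13 tested was called in Ptbp2 knockdown cells, Cdkn2c, an inhibitor of the cyclin D kinases, with 0 of 13 in Ptbp1 knockdown cells and 0 of 12 in double knockdown cells. It was at 9.99, 12.98 and 8.52 FPKM in Ptbp1, Ptbp2 and double knockdown cells against 5.34 FPKM in control. By assembled depth it was 0.87 above control in Ptbp2 knockdown cells on the log2 scale, short of 2-fold. SoxB, SoxC and SoxE factors had 0 called of 5 tested in every knockdown, zinc finger differentiation factors 0 of 4, and the Hes and Hey repressors 0 of 2, which were Hes6 and Hey1.

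Exon reads called other genes of these lists, named here after their values were seen. Of 7 Hes and Hey genes tested, Hes2 and Heyl were past 2-fold upward in Ptbp1 knockdown cells, at 1.43 and 1.86 on the log2 scale, 0 were in Ptbp2 knockdown cells, and Hes7 was past it downward in double knockdown cells, at -1.30. Cdkn1c, a cyclin kinase inhibitor, was past 2-fold upward in all 3 knockdowns, by 4.10-fold in Ptbp1 knockdown cells, 2.18-fold in Ptbp2 knockdown cells and 2.34-fold in double knockdown cells. Lyl1 of the Id partners was called higher in Ptbp2 knockdown cells, and Ascl2 of the proneural factors higher in Ptbp1 knockdown cells. Hes2, Heyl, Hes7, Lyl1 and Ascl2 were not tested by gene FPKM. Assembled depth added Ccnd3, a D-type cyclin, in double knockdown cells, at 1.02, and Scrt1 of the zinc finger factors in Ptbp1 knockdown cells.

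Of 22 early neuronal genes 17 were tested in Ptbp2 knockdown cells and 0 were called. There 2 of the 17 were above control, Stmn4 at 0.87 and Tubb3 at 0.02 on the log2 scale, beside 52.8% of all genes, and 15 were below, with a median of -0.44 against 0.02 over all genes. In the Ptbp1 knockdown 11 of 18 were above control, beside 54.9% of all genes, with a median of 0.26 against 0.04 over all genes, and 0 were called. In the double knockdown 7 of 18 were above control, beside 58.5% of all genes, with a median of -0.08 against 0.07 over all genes, and Stmn2, a tubulin-binding protein of growing axons, was called lower. Stmn2 stood at 57.0, 56.7 and 29.7 FPKM in Ptbp1, Ptbp2 and double knockdown cells against 78.7 FPKM in control. By exon reads 14, 3 and 4 of 18 early neuronal genes were above control in Ptbp1, Ptbp2 and double knockdown cells. Of all genes 53.5%, 51.9% and 51.9% were above control by exon reads. The list medians were 0.18, -0.4 and -0.19, and Stmn2 in double knockdown cells was again the only call.

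**Figure D5:**
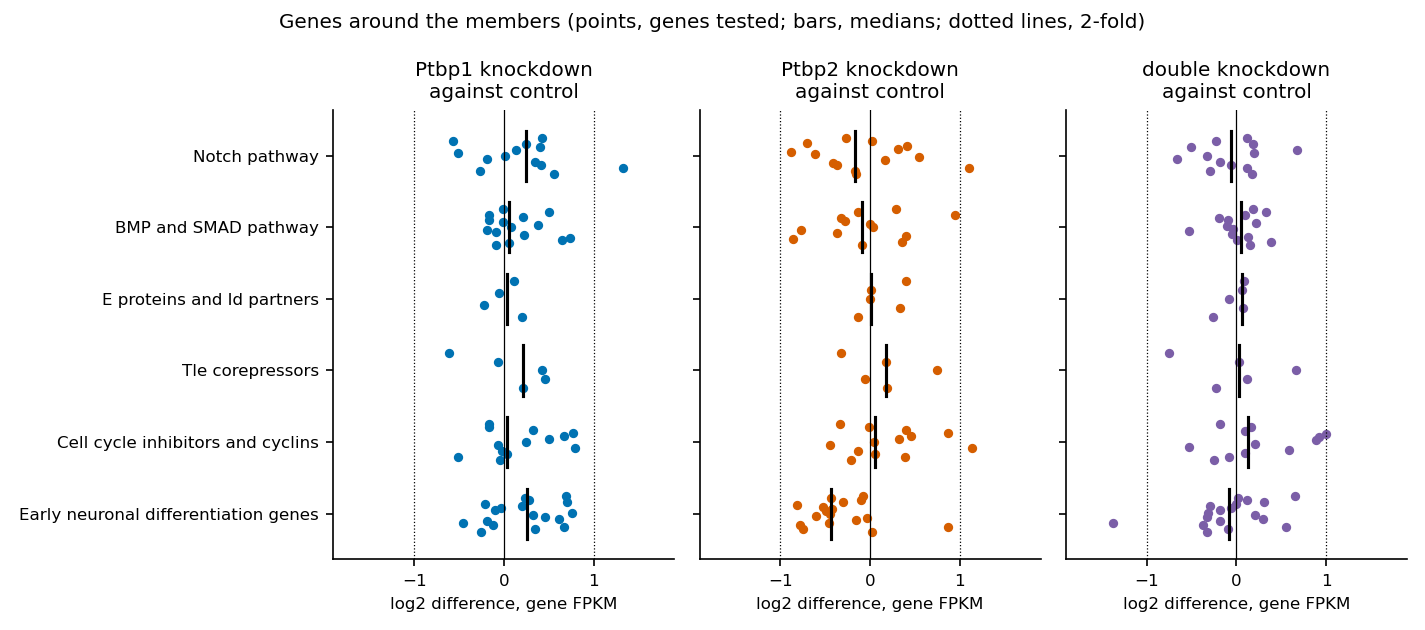
Log2 differences in gene FPKM of each knockdown against control (x axis) for the tested genes of 6 lists around the members (y axis); points are genes, bars are list medians and dotted lines mark 2-fold. The early neuronal genes have a median of -0.44 in Ptbp2 knockdown cells, 0.26 in Ptbp1 knockdown cells and -0.08 in double knockdown cells.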

How the data were processed

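Strand-specific paired-end RNA-seq was made from 4 N2A libraries, 1 per group, per the labels. Per the submitters' processing notes CASAVA, TopHat and Cufflinks were used on mm9; versions are not given in the sources used here. Per the file headers the authors deposited FPKM with 95% bounds and a coverage signal (mean depth per base) for each gene or transcript of a separate assembly per library. They also deposited transcript coordinates with a score, which was not used. Per the file headers SpliceTrap gave, for 228333 exon trios, junction read counts, coverage per exon and an inclusion ratio as a fraction, printed here as percent.

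The deposited FPKM are far above the usual scale, so each was divided by its library's summed FPKM times length. Relative to control the divisors were 0.882 in Ptbp1 knockdown cells, 0.991 in Ptbp2 knockdown cells and 1.31 in double knockdown cells. Exon reads were recovered as coverage times exon size over read length, which gave whole numbers within 0.05 reads for 100% of values above 0. They were scaled by median-of-ratios size factors, and the exon rule used a pseudocount of 0.1 CPM and at least 20 reads. The gene rule used a pseudocount of 1 FPKM.

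Python 3.11.15, numpy 2.4.6, pandas 2.3.3, scipy 1.17.1 and matplotlib 3.10.9 were used. Named genes are the members, list genes past the rule or else the most abundant of a list, the 5 nearest genes to a called member, and Ptbp1 and Ptbp2. Other list genes, such as Tcf4, Smad9, Hey1, Aqp4, Thy1 and those called only by exon reads or depth, were chosen after their values were seen. The members and lists were chosen with earlier results of these data known. Sequences came from GENCODE transcripts on GRCm38, and no coordinate was converted between builds. Alternatives covered pseudocount, filter, scaling, threshold, exon reads, RefSeq models alone and, added after seeing the data, assembled depth. The summed level of the astrocyte and oligodendrocyte markers is not reported here.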

Additional observations from a re-analysis of the deposited data

How the results depend on the processing

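No paired analysis was possible because each group has 1 library, and none could be left out. Id4 was the member called in the Ptbp2 knockdown against control under the pseudocounts, filters, scalings, exon reads and assembled depth, with log2 differences of 1.14 to 1.47. It reversed to -2.94 when RefSeq models alone were counted, since that model is listed at 0 there. At that setting 1 member, Id4, was also called lower in the double knockdown, against control and against the Ptbp1 knockdown, beside 11.2% and 10.5% of genes. With a 1.5-fold threshold 2 members, Id4 and Id2, were called in the Ptbp2 knockdown against control (11.8% of genes), 1, Id2, in the double knockdown against the Ptbp1 knockdown (9.81%) and 1, Id4, against the Ptbp2 knockdown (9.99%). Using the deposited FPKM undivided moved the median of all genes to 0.44 in the double knockdown and to -0.13 in the Ptbp1 knockdown against control. Beside those medians, Insm1, Sox4 and Sox11 turned to -0.15, -0.07 and -0.12 in the Ptbp1 knockdown, and Hes6 and Sox11 to 0.22 and 0.10 in the double knockdown. The share of higher genes among all calls in the double knockdown against control was 52.8% with the library total, 42.1% with median-of-ratios scaling and 92.4% undivided; in the Ptbp1 knockdown it was 64.7%, and 42.5% undivided. Against the Ptbp1 and Ptbp2 knockdowns the double knockdown had 35.6% and 57.5%, and 94.3% and 92.2% undivided. Low read numbers limit Hes1 and the Hes6 exon, and joined models limit Id1.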
